A study of Mus musculus with 230 samples.

Results

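Intact dorsal root ganglion neurons of 8-month-old mice were compared with those of 1-month-old mice. The comparison used 6 of the 230 samples of the series: 3 low-input RNA libraries at 8 months and 3 at 1 month, chosen by their age and condition labels and not by any measured value. All 6 came from a C57BL/6 X CAST/Ei cross. The neurons of both groups carry the condition label intact, in a study that also sampled neurons after sciatic nerve injury. Ganglia of lumbar levels L4 and L5 were dissociated with enzymes and neurons were picked by hand. The cytoplasm went into SMART-seq2 libraries, a full-length cDNA method for very small RNA inputs, and was read as 150 bp pairs. The labels used here do not give the number of neurons or animals per library, nor the sex. They do not say that replicates were separate animals, so p-values measure only the spread between these libraries, which may be technical. Both groups are called by their age below, and replicate numbers are those of the labels.

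Dorsal root ganglia hold the cell bodies of the sensory neurons that serve skin, muscle and viscera. These neurons are commonly divided into large neurofilament-rich (NF) neurons for touch and body position, peptidergic (PEP) neurons for heat and painful stimuli, non-peptidergic (NP) neurons for itch and mechanical pain, and neurons marked by tyrosine hydroxylase (TH) for light touch. Each class carries its own growth factor receptors and ion channels, and each neuron maintains a long axon through transport, mitochondrial energy supply and protein turnover.

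After spike-ins and the single most abundant feature (CT010467.1) were removed, the libraries held 3956440 to 11587094 counts. The 1-month libraries kept 5766197 to 11587094 counts and detected 15754 to 18610 genes; the 8-month libraries kept 3956440 to 4574940 and detected 13030 to 14764. CT010467.1 took 40.4% to 45.3% of the endogenous counts at 1 month and 65.7% to 68.2% at 8 months. These 3 measures did not overlap between the ages, and each gave the smallest two-sided p that an exact permutation of 3 against 3 libraries allows, 0.1 (0.32 adjusted over 16 library measures). With libraries thinned to 3954091 counts, 15344 to 16920 genes were detected at 1 month and 13022 to 14632 at 8 months. Rank correlations of libraries were 0.837 to 0.884 within 1 month, 0.655 to 0.782 within 8 months and 0.614 to 0.847 between the ages. These library differences run together with age, and their part in the results was not tested except where a value is given.

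The intact neurons differed with age in 95 of 12797 protein-coding genes tested. At 8 months 26 genes were higher (0.203% of those tested) and 69 were lower (0.539%), at a Benjamini-Hochberg adjusted p below 0.05 in edgeR's quasi-likelihood test. The higher genes included the drug- and steroid-metabolising cytochrome Cyp1b1, the sensory lineage factor Prdm12, the potassium channel subunit Kcng2 and the growth-cone protein Basp1. The lower genes included the GDNF-family receptor Gfra3, the cannabinoid receptor Cnr1, the GABA-A receptor subunit Gabra5, the axon guidance molecule Ntng1 and the protocadherin Pcdh7. In all 95 the 3 libraries of one age lay outside the range of the other. Separation alone was common: 7.37% of the tested genes had all 8-month values above all 1-month values and 11.9% had them all below. An unadjusted p below 0.05 by edgeR was common too, in 1996 of the 12797 genes, 887 higher and 1109 lower. The counts given below for members of lists stand beside these values. Of the 69 lower genes, 24 had no count in any 8-month library and 13 had 1 to 3 counts over the group. The median fitted change of all protein-coding genes tested was 0.02 (log2), of the 26 higher genes 1.86, and of the 32 lower genes with more than 3 counts at 8 months -2.17.

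These counts depended on the other libraries of the fit. The model shared its spread over all 18 low-input libraries; with only the 6 libraries compared, edgeR called 0 genes, with 1183 protein-coding genes at an unadjusted p below 0.05 (1996 in the fit of 18). On the 18 libraries DESeq2 called 293 higher and 427 lower, and limma-voom with quality weights 14 and 5. Scaling to spike-in totals moved the median of all genes by -2.11 (log2) and turned the split into 1 higher and 321 lower. Under that scaling 0 of the 26 higher and 48 of the 69 lower genes of the main fit were called. Spike-ins took 10.6%, 2.00% and 3.28% of the counts at 1 month and 26.9%, 3.11% and 14.4% at 8 months. These shares varied widely within each age and overlapped between the ages (exact permutation p = 0.3, adjusted 0.6). Without 1 library the calls were 7 higher and 32 lower (1 month, replicate 1), 4 and 15 (1 month, replicate 2), 10 and 38 (1 month, replicate 3), 37 and 56 (8 months, replicate 1), 10 and 50 (8 months, replicate 2), and 56 and 82 (8 months, replicate 3). A 12-month intact library, replicate 2, stood apart with 93.8% of its endogenous counts in CT010467.1; without it 104 genes were higher and 264 lower, among them all 26 and all 69 of the main calls.

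**Figure D1:**
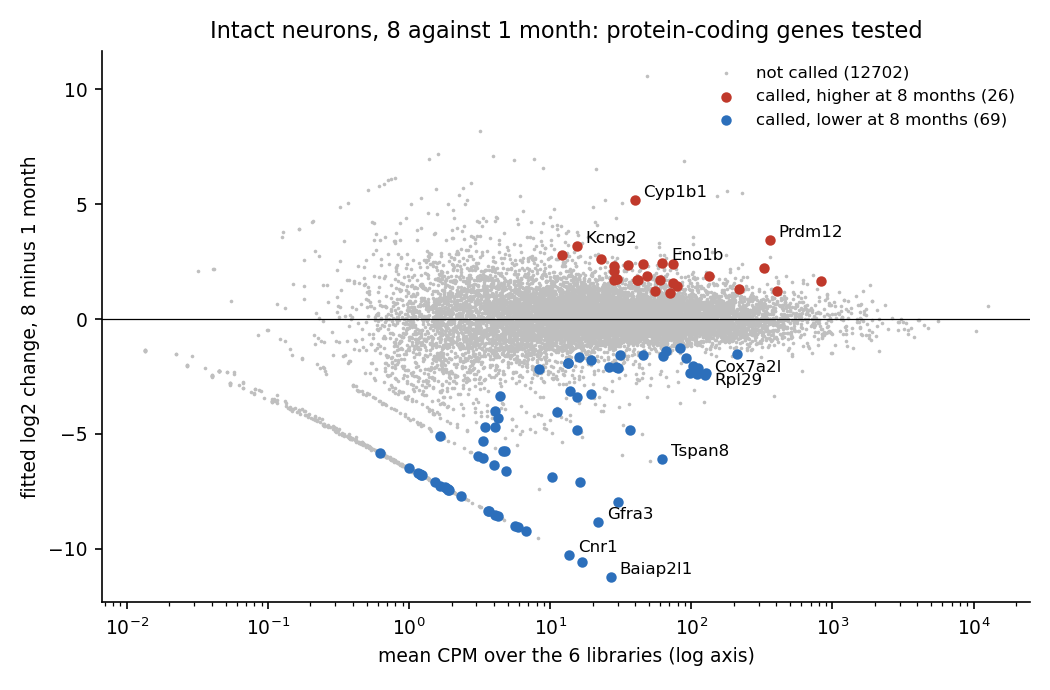
Fitted log2 change from 1 to 8 months (vertical) against the mean CPM over the 6 libraries (horizontal, log axis) for the protein-coding genes tested. Red points are the 26 genes called higher, blue points the 69 called lower; the blue points on the lower left diagonal are genes with no counts at 8 months, whose fitted change is set by the prior count and is no bound.

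Among regulators of sensory neuron identity, Prdm12 was the gene that rose. Prdm12 encodes a zinc-finger regulator needed for pain-sensing neurons (chr2:31640037-31655795, GRCm38). Its normalised counts were 107, 29.1 and 46.5 CPM at 1 month and 645, 1086 and 253 CPM at 8 months. Every 8-month library lay above every 1-month library, the nearest being replicate 3 at 8 months. The fitted change was 3.44 ± 0.70 (log2 ± SE derived from the statistic of the edgeR test, n = 3 per group, adjusted p = 0.0304). The call was lost without replicate 2 or 3 of 1 month (adjusted p = 0.126 and 0.0867) and without replicate 2 of 8 months (0.0748). Of the 18 lineage factors tested, Prdm12 was the 1 called; the list's median change was 0.49, with 10 members above 0 and 8 below. Isl2, a LIM homeobox factor, had 342, 259 and 412 CPM at 1 month and 722, 1743 and 456 at 8 months (log2 1.53 ± 0.53, adjusted p = 0.167). Klf7, which acts in neurotrophin receptor expression, had 165 to 310 CPM and 273 to 431 CPM, with overlapping groups (0.39 ± 0.31, adjusted p = 0.569).

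Other regulators fell. Tbx3, a T-box repressor, had 3.46, 27.8 and 29.7 CPM at 1 month and 0.244, 0 and 0.192 CPM at 8 months. Its 8-month group held 2 counts, which gives a 152-fold lower level with an exact 95% interval of 42.0 to 1260, covering counting error only (adjusted p = 0.0304). Zfp423, a multi-zinc-finger factor, had 8.64, 28.5 and 25.9 CPM against 0, 1.75 and 1.92 CPM (-4.06 ± 0.88, adjusted p = 0.0382). In both genes the 3 younger libraries were all above the 3 older ones, and replicate 1 of 1 month was the lowest of its group. Without any one 8-month library both calls were lost, with adjusted p from 0.0533 to 0.0911, and also without replicate 2 or 3 of 1 month (0.0609 to 0.118).

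Among the called genes the largest rise was that of Cyp1b1, a cytochrome P450 and a standard target of the aryl hydrocarbon receptor (chr17:79706953-79715041). It had 1.21, 3.28 and 1.60 CPM at 1 month and 168, 60.6 and 4.61 CPM at 8 months. Replicate 3 of 8 months lay just above the 1-month range, so the rise of 5.19 ± 0.96 (adjusted p = 0.0187) was carried mainly by the other two. The call was lost without any single 1-month library (adjusted p = 0.0719 to 0.0799) and kept without each 8-month library. Of 7 tested genes of the aryl hydrocarbon receptor pathway, Cyp1b1 was the only one called; Tiparp, another target, had 20.2, 23.4 and 20.7 CPM against 21.5, 37.4 and 64.9 CPM (0.94 ± 0.45, adjusted p = 0.319).

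The 250 bases before the start of Cyp1b1 are shown because it had the largest rise among called genes, with the core letters of the receptor's response element, GCGTG on either strand, in capitals. The sequence is from RefSeq (GRCm38.p6, chr17:79715062-79715311, minus strand) and is written 5′ to 3′ on the gene's strand.
Cyp1b1: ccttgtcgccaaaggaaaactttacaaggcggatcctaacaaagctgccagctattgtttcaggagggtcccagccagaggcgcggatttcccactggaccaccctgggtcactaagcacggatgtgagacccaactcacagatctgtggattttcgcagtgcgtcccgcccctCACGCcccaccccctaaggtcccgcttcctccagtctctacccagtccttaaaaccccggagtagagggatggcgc
The window holds 1 match. Such a match stood in 44.0% of the 12940 windows of tested protein-coding genes (10045 genes matched by symbol) and in 4 of 5 windows of the pathway's tested genes.

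Neurotrophic factor and neuropeptide receptors were lower in part. Gfra3, the co-receptor for artemin and a PEP marker, had 1.21, 45.1 and 84.7 CPM at 1 month and 0, 0 and 0.192 CPM at 8 months. The single count of the 8-month group gives a 622-fold lower level (exact 95% interval 111 to 24600; adjusted p = 0.0382). Replicate 1 of 1 month was close to the 8-month libraries, and the call was lost without replicate 2 or 3 of 1 month (0.1 and 0.072) and without each 8-month library (0.0765 to 0.103). Cnr1, the cannabinoid receptor of nerve terminals, had 21.3, 23.6 and 37.0 CPM at 1 month and no count at 8 months, at least 120-fold lower when the group's empty total is set to a floor of 3 counts (adjusted p = 0.0382). Its call was lost without any single library of the 6 (0.0641 to 0.104).

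Hcrtr2, a receptor for the orexin peptides, had 10.4, 22.2 and 7.49 CPM at 1 month and no count at 8 months, at least 67.9-fold lower (adjusted p = 0.0191; 0.0606 without replicate 2 of 1 month, 0.058 without replicate 2 of 8 months). Among 21 tested genes of a list of opioid, cannabinoid and neuropeptide receptors, which does not hold Hcrtr2, Cnr1 was the 1 called, 14 were below 0 and the median change was -1.11. Among 17 neurotrophin and GDNF-family receptors, Gfra3 was the 1 called and the median was 0.09. Ngfr, the low-affinity neurotrophin receptor, spread widely: 1796, 506 and 694 CPM at 1 month and 5164, 1689 and 74.9 CPM at 8 months (1.21 ± 0.86, adjusted p = 0.517). The mu opioid receptor Oprm1 had 107, 54.5 and 21.3 CPM against 285, 24.7 and 0.192 CPM (0.76 ± 1.32, adjusted p = 0.825). In both, the 8-month libraries held the highest and the lowest values.

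Of the ligand-gated receptors, Gabra5, the alpha-5 subunit of the GABA-A receptor, fell from 10.2, 8.48 and 4.41 CPM to 0.489, 0.748 and 0.192 CPM (-3.999 ± 0.75, adjusted p = 0.0178). All 3 older libraries were at a low level that the younger ones did not reach. Without replicate 1 or 2 of 1 month the adjusted p was 0.0512 and 0.0582, and without replicate 3 of 8 months 0.0527. It was the 1 gene called among 32 tested GABA, glycine and glutamate receptors, of which 12 were above 0 and 20 below, with a median of -0.50. Gabbr1, a GABA-B subunit, overlapped at 151 to 247 CPM and 187 to 381 CPM (0.42 ± 0.37, adjusted p = 0.616).

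Of the voltage-gated channels, Kcng2, a modulatory potassium channel subunit, rose. It had 2.94, 2.32 and 3.88 CPM at 1 month and 25.7, 50.9 and 7.11 CPM at 8 months (3.19 ± 0.70, adjusted p = 0.0393). The younger libraries were within a narrow band and the older ones spread above it. The call was lost without any 1-month library (0.084 to 0.173) and without replicate 1 or 2 of 8 months (0.0518 and 0.136). It was the 1 gene called among 30 potassium channel genes (13 above 0, 17 below, median -0.17). None of 14 sodium channel genes, 14 calcium channel genes or 26 TRP, Piezo, ASIC and P2X genes was called, with medians of 0.41, 0.53 and 0.55. By edgeR, 2 of the 14 sodium channel genes, 5 of the 14 calcium channel genes and 5 of the 26 had an unadjusted p below 0.05. Of all 12797 protein-coding genes tested 1996 had such a p. Scn10a, the sodium channel of nociceptors, had 1382, 532 and 1038 CPM against 1715, 2462 and 1729 CPM (1.00 ± 0.59, adjusted p = 0.421). Its 3 older libraries were all higher, by less than the test required.

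A few channel and receptor genes with groups that did not overlap were picked after their values were seen, and none passed the test. Scn1a, the sodium channel of fast-firing neurons, had 199, 214 and 150 CPM at 1 month and 41.6, 18.2 and 7.11 CPM at 8 months (-3.08 ± 1.03, adjusted p = 0.158). Kcnq3, a subunit of the M-current, had 55.0, 47.5 and 45.9 CPM against 0, 9.72 and 7.11 CPM (-3.13 ± 0.80, adjusted p = 0.0755). Grm7, an inhibitory glutamate receptor of terminals, had 42.5, 17.7 and 52.3 CPM against 122, 127 and 98.9 CPM (1.63 ± 0.39, adjusted p = 0.0549). Separation was the ground for picking these 3 genes and is no result. Groups did not overlap in 4 sodium channel genes on the higher and 1 on the lower side, of 14. These counts were 2 and 8 of 30 potassium channel genes. They were 3 and 7 of 32 GABA, glycine and glutamate receptor genes. Over all protein-coding genes tested the shares were 7.37% higher and 11.9% lower.

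Tspan8, a tetraspanin, had 111, 133 and 122 CPM at 1 month and 0, 3.99 and 1.34 CPM at 8 months (-6.10 ± 0.78, adjusted p = 0.000666). The younger libraries differed little among themselves, and the call was kept without each library of the 6. Pcdh7, a protocadherin, had 59.0, 101 and 53.1 CPM against 0, 2.99 and 4.22 CPM (-4.84 ± 1.05, adjusted p = 0.0393), and its call was lost without each library in turn (0.0533 to 0.118). Ntng1, netrin-G1, which guides axons through a membrane-anchored form, had 10.03, 121 and 48.5 CPM against 0, 0 and 0.576 CPM. Its 3 counts at 8 months give a 332-fold lower level (exact 95% interval 114 to 1610; adjusted p = 0.0364). That call was lost without each of the 6 libraries other than replicate 1 of 1 month (0.0596 to 0.111).

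Baiap2l1, an actin-binding membrane protein, had 19.02, 86.6 and 56.2 CPM at 1 month and no count at 8 months, at least 278-fold lower (adjusted p = 0.0128). Tmem108, a neuronal membrane protein, had 22.8, 44.6 and 32.9 CPM and none, at least 161-fold lower (adjusted p = 0.0121). Both calls were kept without each library of the 6. The integrin subunit Itga9 had 8.13, 0.64 and 2.81 CPM and no count at 8 months, at least 13.1-fold lower (adjusted p = 0.0406); its call was lost without each of the 6 libraries other than replicate 2 of 1 month (0.0646 to 0.115). Ntng1 was the 1 gene called of 55 axon guidance genes (median -0.34), Pcdh7 of 42 adhesion genes (median -0.09) and Itga9 of 17 integrins (median 0.39).

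At 8 months Basp1, a membrane protein of growth cones, was higher: 62.4, 42.7 and 68.5 CPM at 1 month and 131, 362 and 133 CPM at 8 months (1.85 ± 0.41, adjusted p = 0.0405). Replicate 2 of 8 months was the highest. The call was lost without any 1-month library (0.08 to 0.179) and without that replicate (0.139). Basp1 was the 1 gene called of 38 tubulin and growth-cone genes, 20 above 0 and 18 below (median 0.07). Tubb3, neuronal beta-tubulin, had 6868, 5399 and 3894 CPM against 6368, 3585 and 2488 CPM (-0.38 ± 0.44, adjusted p = 0.718), and Map1b, a microtubule protein of growing axons, 8674 to 14690 CPM against 7105 to 10850 CPM (-0.51 ± 0.42, adjusted p = 0.581). Both overlapped between the ages. No gene of 36 kinesin, dynein and dynactin genes was called (median 0.22; 6 at an unadjusted p below 0.05 by edgeR), nor of 35 synaptic vesicle genes (median 0.24; 6).

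Scg5, the 7B2 chaperone of the prohormone convertase PC2 in secretory granules, was higher at 79.0, 142 and 126 CPM and then 572, 454 and 576 CPM (2.21 ± 0.40, adjusted p = 0.0154). The older libraries lay close together, well above the younger ones. Its sign turned under spike-in scaling (-0.15), and the call was lost without any 1-month library (0.0542 to 0.0761). The remaining genes with large rises were Cyp4v3, a cytochrome P450 for fatty acids, Sfi1, a centrosome protein, Tmcc2, Dlgap1, a postsynaptic scaffold, Qsox2, Slc25a53, Zfr2 and Nat14, with fitted changes from 1.76 to 2.78. Of 21 alternatives, Cyp4v3 and Nat14 were not called in 13, Qsox2 and Zfr2 in 11, Sfi1 and Dlgap1 in 9, Slc25a53 in 6 and Tmcc2 in 5. Cyp4v3, Sfi1, Dlgap1, Qsox2 and Nat14 were lost without any single 1-month library (adjusted p 0.0573 to 0.193). The remaining genes with large falls were Cryba2, Slc35f2, Cela1, Slc29a4, a nucleoside and monoamine transporter, and Plpp2, a lipid phosphatase. Of their alternatives, Slc35f2 was not called in 11 of 21, Plpp2 in 9 of 21, Cryba2 in 6 of 20, and Cela1 and Slc29a4 in 4 of 21. Slc29a4 had 31.1, 21.8 and 37.7 CPM against 0, 0 and 2.88 CPM (-4.83 ± 0.87, adjusted p = 0.0128), and Cela1 26.6, 54.1 and 16.7 CPM against 0, 0 and 0.576 CPM (adjusted p = 0.00269).

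**Figure D2:**
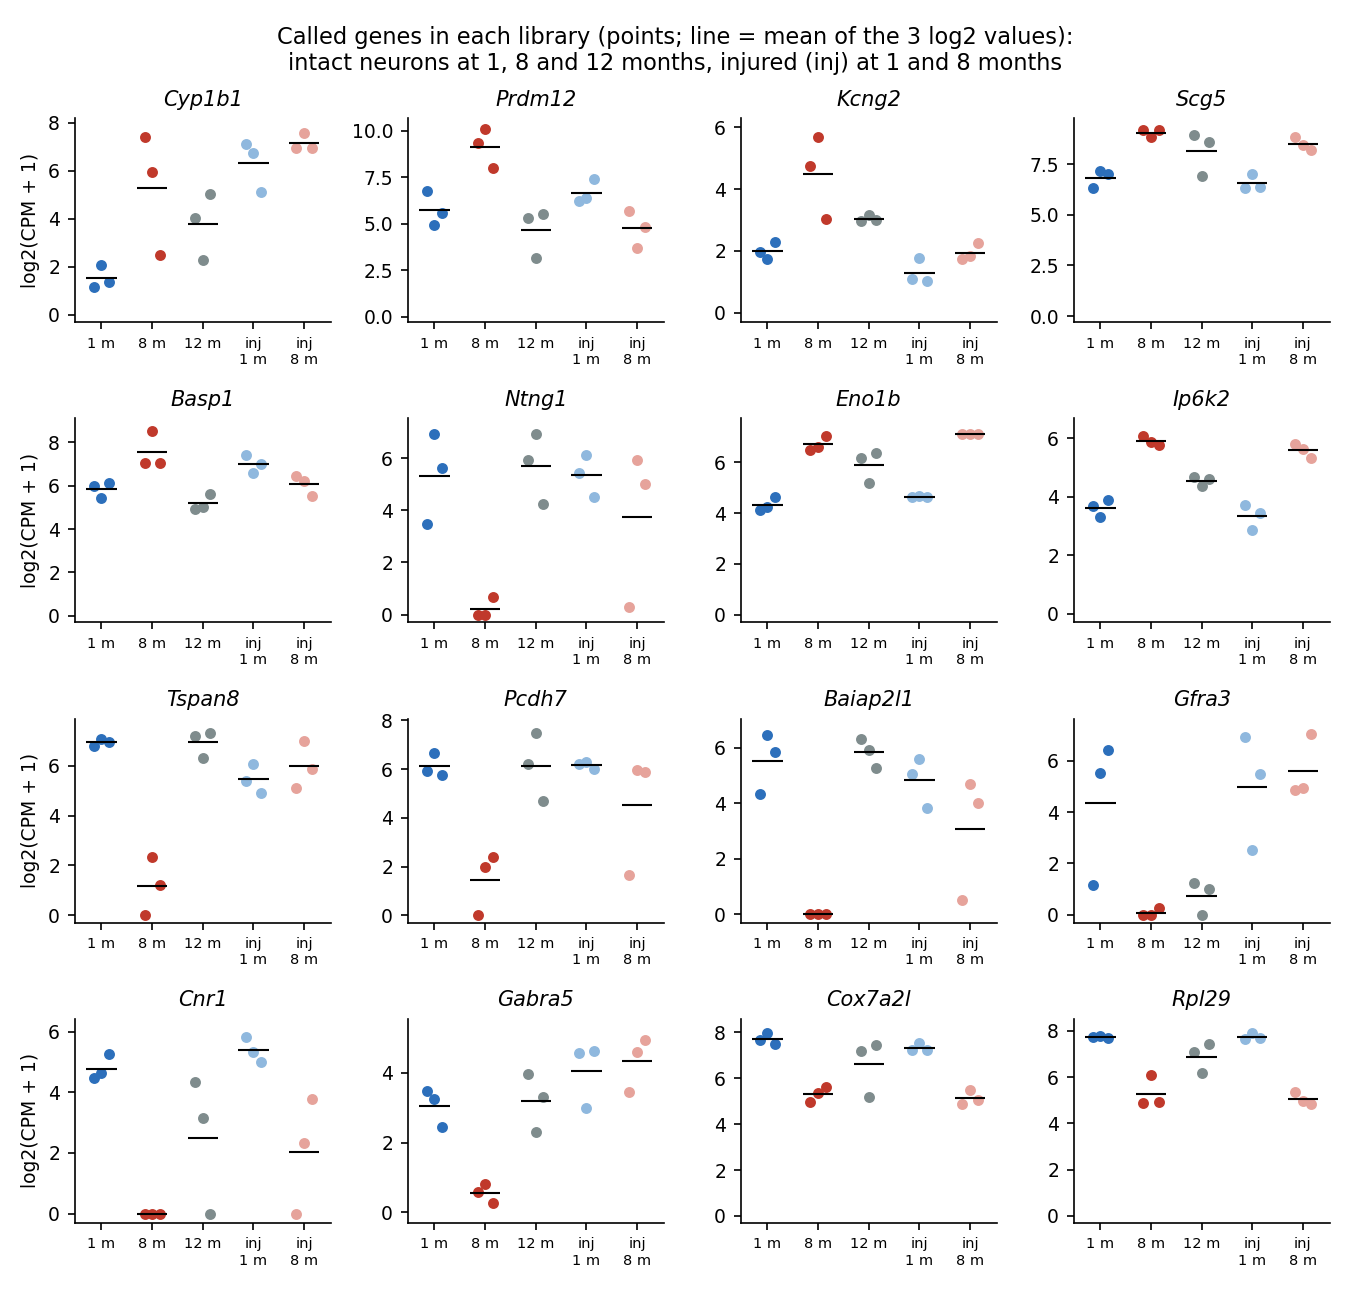
Each panel shows 1 called gene, with log2(CPM + 1) on the vertical axis and 1 point per library; horizontal lines are means of the 3 log2 values. Groups are intact neurons at 1, 8 and 12 months and injured neurons at 1 and 8 months; Cox7a2l, Rpl29, Eno1b and Ip6k2 differed between 1 and 8 months in injured neurons too, while Tspan8 at 0, 3.99 and 1.34 CPM was low only in the intact 8-month libraries of those drawn.

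Genes of oxidative phosphorylation, cytosolic ribosomes and the proteasome leaned lower as groups, with 1 single call. Of 76 nuclear-encoded oxidative phosphorylation genes, 75 had a fitted change below 0 and the median was -0.78, against 48.9% of all protein-coding genes below 0 and a median of 0.02. None was called. By edgeR 27 of the 76 were lower at an unadjusted p below 0.05, against 1109 of all 12797 protein-coding genes tested. In 51 of 76 the groups did not overlap on the lower side, against 11.9% of all genes tested. DESeq2 called 9 of the 76, where it called 293 higher and 427 lower among all protein-coding genes tested. In this list the lowest edgeR adjusted p was that of Ndufc2, a complex I subunit (-1.42 ± 0.35, adjusted p = 0.0645). It had 180, 216 and 151 CPM at 1 month and 70.2, 44.4 and 90.1 CPM at 8 months. Atp5b, the catalytic beta subunit of ATP synthase, had 2080, 2651 and 2150 CPM against 2171, 1557 and 1791 CPM (-0.32 ± 0.37, adjusted p = 0.718). Cox4i1, of complex IV, had 1043, 1271 and 896 CPM against 546, 368 and 901 CPM (-0.82 ± 0.44, adjusted p = 0.371). Sdha, a flavoprotein of complex II, was the member above 0 (0.40).

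The 8 tested mitochondrially encoded genes all had values below 0 and groups that did not overlap. Of all protein-coding genes tested 11.9% did not overlap on the lower side. The median of the 8 was -1.35 and none was called by edgeR (0 at an unadjusted p below 0.05). mt-Co1, a core subunit of complex IV, had 3184, 3162 and 2997 CPM at 1 month and 1589, 1034 and 948 CPM at 8 months (-1.39 ± 0.94, adjusted p = 0.492). Its older libraries were all lower, while the fitted error carried the spread of all 18 libraries, among them the 12-month replicate with 40.5% of its counts from mitochondrial genes. Without that replicate 7 of the 8 genes were called. Calls over all protein-coding genes then rose as well, to 104 higher and 264 lower. The mitochondrial share of counts was 2.06% to 2.69% at 1 month and 1.19% to 1.32% at 8 months (exact permutation p = 0.1, adjusted 0.32).

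Of 82 cytosolic ribosomal protein genes 77 were below 0 (median -0.45). On the lower side 36 did not overlap, against 11.9% of all protein-coding genes tested. Of the 82 genes 1, Rpl29, was called lower, against 0.539% of all protein-coding genes tested. Rplp0, of the ribosomal stalk, had 404, 446 and 294 CPM against 151, 119 and 177 CPM (-1.35 ± 0.33, adjusted p = 0.0622); it was picked after its values were seen. Rpl3 overlapped at 463, 458 and 380 CPM against 425, 209.5 and 444 CPM (-0.27 ± 0.46, adjusted p = 0.822). Of 31 proteasome subunits 30 were below 0 (median -0.57) and none was called. Of these subunits 12 did not overlap on the lower side, against 11.9% of all protein-coding genes tested. By edgeR 9 were lower at an unadjusted p below 0.05, against 1109 of all 12797 protein-coding genes tested. Psma7, of the catalytic core, had 571, 540 and 358 CPM against 258, 257 and 325 CPM (-0.81 ± 0.26, adjusted p = 0.138).

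Short genes as a whole leaned the same way. Among the 258 protein-coding genes with exons of up to 1000 bp the median change was -0.61 and 36.4% did not overlap on the lower side; among the 7303 genes over 4000 bp these values were 0.10 and 9.60%. Of 34 genes of up to 1000 bp and over 100 CPM outside these 4 lists, 82.4% were below 0, with a median of -0.59. The median exon length was 1688 bp in the nuclear oxidative phosphorylation list, 1754 bp in the ribosomal list and 2800 bp in the proteasome list. The part of gene length in the lists' values was not tested. The 4 medians stayed below 0 in every alternative with 1 exception: with the CT010467.1 share as a covariate, the oxidative phosphorylation median was 0.28 and the proteasome median 0.24, and 20 of 76 and 11 of 31 genes were below 0.

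**Figure D3:**
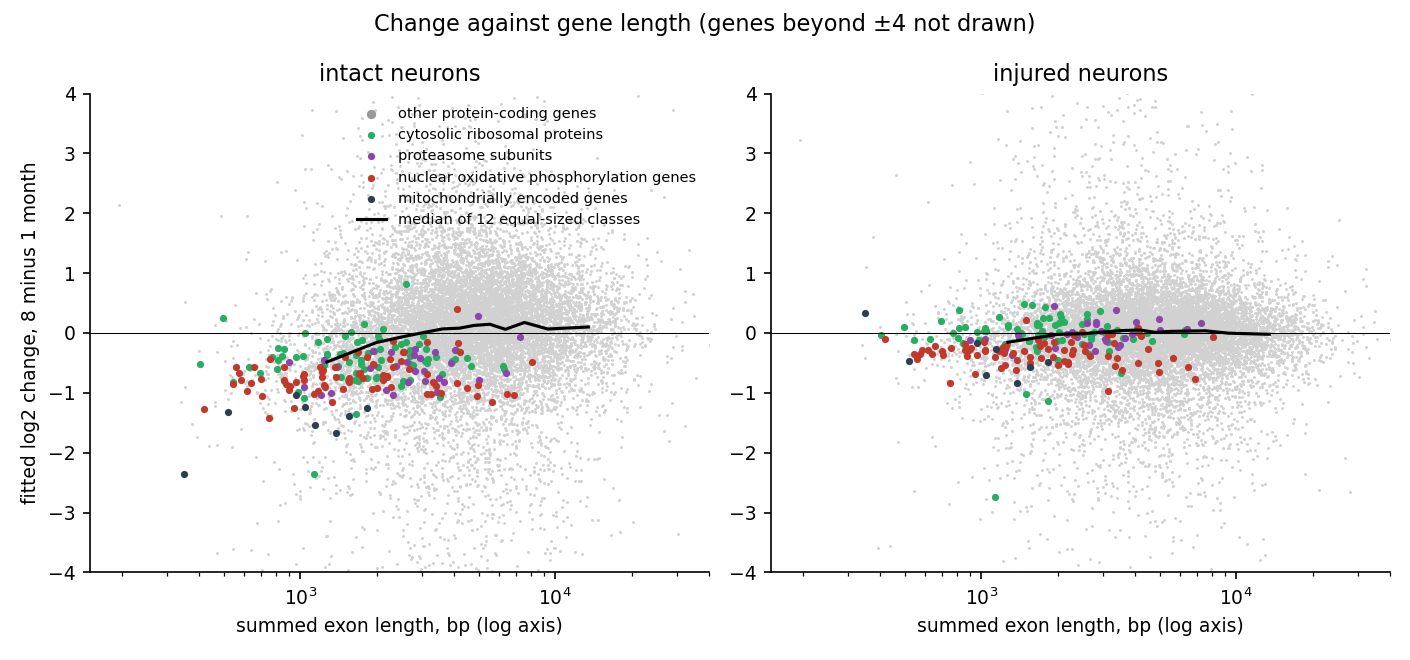
Fitted log2 change from 1 to 8 months (vertical, genes beyond ±4 not drawn) against summed exon length (horizontal, log axis) in intact and injured neurons, with 4 lists in colour and a black line through the medians of 12 length classes of equal size. In intact neurons short genes lie lower, with a median of -0.61 up to 1000 bp, and in injured neurons the same class had a median of -0.17.

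Because these genes leaned the same way, the 250 bases before the start of 3 oxidative phosphorylation genes are shown, those with the lowest unadjusted p among genes holding the core letters of the NRF1 motif. NRF1, nuclear respiratory factor 1, is a known activator of respiratory chain genes. Capitals mark GCATGCGC on either strand; where both strands match, they overlap in a run of 10 capitals. Sequences are from RefSeq (GRCm38.p6), 5′ to 3′ on the gene's strand, which is the minus strand in all 3: Atp5k at chr5:108434400-108434649, Cox6a1 at chr5:115348959-115349208 and Ndufa6 at chr15:82354292-82354541.
Atp5k: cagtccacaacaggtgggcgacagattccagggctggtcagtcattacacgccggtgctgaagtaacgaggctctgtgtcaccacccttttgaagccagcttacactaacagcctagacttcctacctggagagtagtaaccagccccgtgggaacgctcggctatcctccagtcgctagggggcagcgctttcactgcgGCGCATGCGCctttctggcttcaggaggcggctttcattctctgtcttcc
Cox6a1: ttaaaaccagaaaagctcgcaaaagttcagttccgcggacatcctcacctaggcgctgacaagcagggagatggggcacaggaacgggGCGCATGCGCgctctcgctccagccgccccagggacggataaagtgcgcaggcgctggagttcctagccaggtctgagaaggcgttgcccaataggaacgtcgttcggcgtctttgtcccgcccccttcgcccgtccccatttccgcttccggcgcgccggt
Ndufa6: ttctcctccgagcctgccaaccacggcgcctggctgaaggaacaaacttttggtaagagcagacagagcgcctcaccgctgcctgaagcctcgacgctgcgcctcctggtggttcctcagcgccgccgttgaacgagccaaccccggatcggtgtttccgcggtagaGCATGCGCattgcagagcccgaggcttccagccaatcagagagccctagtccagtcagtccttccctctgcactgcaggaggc
The letters stood in 9 of 68 windows (13.2%) of the 63 oxidative phosphorylation genes matched, in 2 of 27 proteasome windows, in 0 of 72 ribosomal protein windows and in 4.21% of the windows of all tested protein-coding genes. Atp5k, subunit e of ATP synthase, had 128, 104 and 110 CPM at 1 month and 46.5, 38.4 and 89.7 CPM at 8 months (-0.97 ± 0.30, adjusted p = 0.126). Cox6a1, of complex IV, had 522, 527 and 462 CPM against 280, 266 and 338 CPM (-0.77 ± 0.25, adjusted p = 0.138). In both, all 3 older libraries were lower.

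Other metabolic groups leaned in different directions. Of 20 glycolysis enzymes none was called (median 0.16, 4 at an unadjusted p below 0.05 by edgeR). Gapdh had 1452, 2537 and 1790 CPM against 2302, 1016 and 2266 CPM (-0.05 ± 0.55, adjusted p = 0.983). Of 30 cholesterol and fatty acid synthesis genes 22 were above 0 (median 0.38), and the 1 called was Pmvk, phosphomevalonate kinase, which fell from 120, 116 and 115 CPM to 40.6, 42.4 and 64.7 CPM (-1.25 ± 0.26, adjusted p = 0.0314). Its call was lost without each library of the 6 other than replicate 3 of 8 months (0.0698 to 0.107). Of 27 antioxidant and NRF2 genes 19 were below 0 (median -0.34), and the 1 called was Gsta4, a glutathione transferase for lipid peroxidation products, with 10.4, 9.93 and 3.34 CPM against 0, 0 and 0.768 CPM (-4.70 ± 0.91, adjusted p = 0.0222). Its call was lost without replicate 1 or 2 of 1 month (0.0592 and 0.079) and without replicate 2 of 8 months (0.058).

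No gene was called among 35 heat shock and unfolded protein genes (median 0.15), 32 lysosome and autophagy genes (-0.09), 30 interferon and MHC class I genes (0.02), 22 DNA methylation enzymes and readers (0.26), 19 cell-cycle arrest and senescence genes (0.36), 19 clock genes (-0.13) or 23 nerve injury genes (0.14). At an unadjusted p below 0.05 by edgeR these lists held 7, 4, 7, 3, 2, 1 and 5 genes, against 1996 of all 12797 protein-coding genes. Hsp90ab1, a chaperone, had 3468, 2618 and 3104 CPM against 3389, 2761 and 2935 CPM (-0.02 ± 0.23, adjusted p = 0.987), with overlapping groups. Lmna, a nuclear lamin, had 192, 117 and 208.5 CPM against 226, 552 and 282 CPM (1.03 ± 0.36, adjusted p = 0.169).

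**Figure D4:**
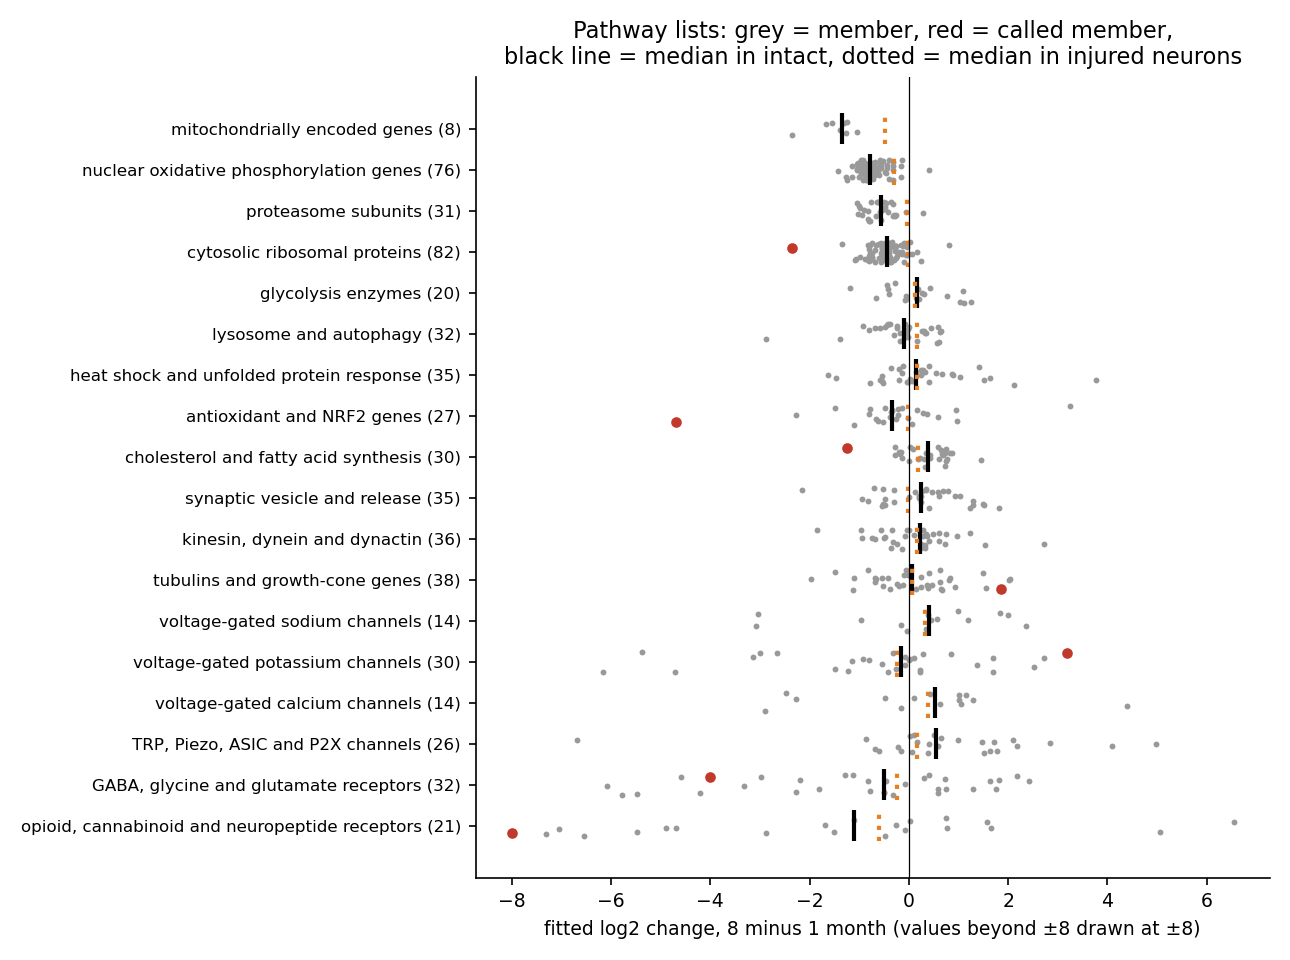
Fitted log2 change from 1 to 8 months (horizontal, values beyond ±8 drawn at ±8) of the tested members of 18 lists, with the number tested in brackets. Grey points are members, red points called members, black lines the medians in intact and dotted lines those in injured neurons; the black median of oxidative phosphorylation genes is at -0.78 and the dotted one at -0.30.

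Markers of neuron classes varied widely between libraries of one age. The 15 general neuronal markers had a median change of -0.06 and none was called (2 at an unadjusted p below 0.05 by edgeR), and their summed level was 20800 to 32980 CPM at 1 month and 20020 to 27490 CPM at 8 months. The labelled cell type thus showed its defining markers in all 6 libraries. Avil, advillin, an actin regulator of sensory neurons, had 629, 441 and 721 CPM against 1173, 1431 and 1090 CPM (1.04 ± 0.30, adjusted p = 0.102), with all older libraries higher.

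Of 16 tested NP markers 14 were above 0 (median 1.57) and none was called (0 at an unadjusted p below 0.05 by edgeR). Mrgprd, the receptor that defines the main NP class, had 0, 110 and 490 CPM at 1 month and 0, 1498 and 710 CPM at 8 months (1.88 ± 2.32, adjusted p = 0.737). P2rx3, an ATP-gated channel, had 163, 102 and 495 CPM against 4.65, 1442 and 901 CPM (1.63 ± 1.25, adjusted p = 0.554). For both genes replicate 1 of 8 months was the lowest of its age or of all 6, and replicates 2 and 3 of 8 months were the highest of all 6. The summed NP level was 485 to 3515 CPM at 1 month and 252 to 8031 CPM at 8 months (exact permutation p = 0.4, adjusted 0.64).

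Of 12 NF markers 10 were below 0 (median -0.77) and none was called (3 at an unadjusted p below 0.05 by edgeR). Ntrk3, the neurotrophin-3 receptor, had 1249, 257 and 605 CPM at 1 month and 60.1, 64.6 and 81.6 CPM at 8 months (-3.35 ± 0.88, adjusted p = 0.0785). Ntrk3 was the 1 marker of the 12 whose groups did not overlap on the lower side, against 11.9% of all protein-coding genes tested. Nefh, the heavy neurofilament, had 3492, 1840 and 1041 CPM against 1526, 1462 and 994 CPM (-0.68 ± 0.81, adjusted p = 0.726). Pvalb, the parvalbumin of muscle afferents, had 173, 322 and 178 CPM and then 0.978, 0 and 367 CPM (-0.87 ± 1.82, adjusted p = 0.859), so that replicate 3 of 8 months was the highest of all 6 and the other two were near 0.

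Of 15 PEP markers 7 were above 0 and 8 below (median -0.47), with Gfra3 the 1 called. By edgeR 4 were higher and 2 lower at an unadjusted p below 0.05, against 887 and 1109 of all 12797 protein-coding genes tested. Groups did not overlap in 1 on the higher side, Chrna3, and in 2 on the lower side. Over all protein-coding genes tested these shares were 7.37% and 11.9%. Chrna3 and Kit, named below, are among the 7 above 0. Calca, which encodes the peptide CGRP, had 5165, 1694 and 925 CPM against 6199, 1518 and 389 CPM (0.06 ± 0.87, adjusted p = 0.988). Chrna3, a nicotinic receptor subunit of silent nociceptors, had 0, 29.3 and 0 CPM against 990, 251 and 99.7 CPM (5.47 ± 1.55, adjusted p = 0.105), separated in every library. Kit, the stem cell factor receptor, had 2.94, 15.7 and 2.41 CPM against 848, 39.4 and 4.42 CPM (5.37 ± 1.81, adjusted p = 0.161), with replicate 1 of 8 months far above the rest. That replicate also held the cold channel Trpm8 at 119 CPM, against 0 to 4.402 CPM in the other 5. Of 5 tested TH markers none was called (median 0.50; 1 at an unadjusted p below 0.05 by edgeR); Th itself was 0.88 to 3.46 CPM at 1 month and 40.1, 0 and 0 CPM at 8 months. In pooled RNA, fewer cells of a class and less RNA per cell cannot be told apart.

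**Figure D5:**
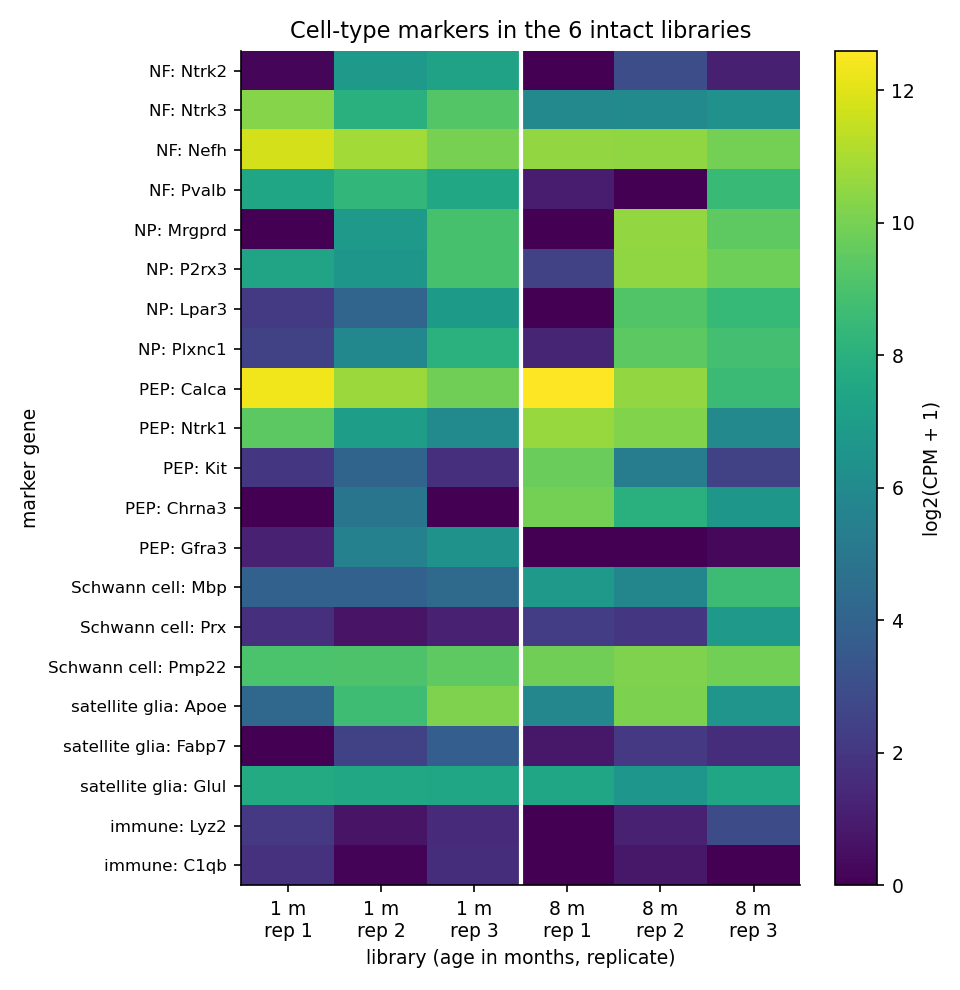
Log2(CPM + 1) (colour) of marker genes (rows) in the 6 libraries (columns, age and replicate). Mrgprd, Lpar3 and Plxnc1 are darkest within either age in replicate 1 and bright in replicates 2 and 3 of 8 months, Ntrk3 is brighter in every 1-month library, and Mbp is brightest in replicate 3 of 8 months.

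No marker of other cell types was called. Of 10 tested Schwann cell markers 8 were above 0 (median 1.89) and none passed. In 5 of the 10 all 8-month values lay above all 1-month values, against 7.37% of all protein-coding genes tested. By edgeR 6 of the 10 were higher at an unadjusted p below 0.05, against 887 of all 12797 protein-coding genes tested. The myelin gene Mbp had 13.8, 13.9 and 19.7 CPM against 110, 54.9 and 403 CPM (3.58 ± 1.21, adjusted p = 0.162). Its 3 older libraries were all higher, and replicate 3 of 8 months was the highest. S100b, 1 of the 2 members below 0, went the other way. It had 1142, 944 and 575 CPM at 1 month and 667, 175 and 448 CPM at 8 months (-1.04 ± 0.54, adjusted p = 0.352), with overlapping groups. Summed over 12 markers the level was 1419 to 1688 CPM at 1 month and 1547 to 2696 CPM at 8 months. Of 11 tested satellite glia markers 9 were below 0 (median -0.76). The 12 satellite glia markers summed to 226 to 1445 CPM and 228 to 1240 CPM, and Sox2 was at 0 in all 6. The 13 immune markers summed to 1.20 to 6.74 CPM and 0.734 to 9.22 CPM, with C1qa, C1qc, Itgam and Cx3cr1 at 0 in all 6. Vessel and fibroblast markers summed to 24.3 ± 8.01 CPM at 1 month and 59.3 ± 35.1 CPM at 8 months (SD, n = 3). The part of these cells in the called genes was not tested.

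In injured neurons, whose libraries are separate from the intact ones, the same ages were compared in the same fit. The labels do not say whether the animals were separate too, so the intact and injured contrasts may not be independent. Of the 12797 protein-coding genes, 2 were higher (0.0156%) and 5 lower (0.0391%) at 8 months. Of the 95 genes called in intact neurons 74 had the same sign in injured neurons, 20 of 26 higher and 54 of 69 lower. In injured neurons 49.9% of all tested genes were below 0. The share of all tested genes with the same sign in both conditions was not computed, so these counts have no baseline. The median injured change was 0.64 for the higher and -0.74 for the lower genes. Both contrasts called 5 genes in the same direction, 5.26% of the intact and 71.4% of the injured calls.

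Those 5 were Rpl29, Cd59a and Cox7a2l, lower, and Eno1b and Ip6k2, higher. Rpl29 encodes a ribosomal protein of the large subunit; it had 211, 220 and 204 CPM in intact neurons at 1 month and 28.1, 67.1 and 29.0 CPM at 8 months (-2.36 ± 0.35, adjusted p = 0.003). In injured neurons it had 198, 242 and 205 CPM and then 39.5, 29.8 and 27.4 CPM (-2.74 ± 0.36, adjusted p = 0.00102). Cd59a, an inhibitor of the complement attack complex, had 192, 187 and 110 CPM against 33.2, 49.6 and 13.6 CPM in intact neurons (-2.34 ± 0.38, adjusted p = 0.00627) and 279, 233 and 288 CPM against 25.3, 24.2 and 24.0 CPM in injured neurons (-3.44 ± 0.40, adjusted p = 0.000276). Cox7a2l, a factor for respiratory supercomplexes, had 202, 254 and 178 CPM against 30.6, 39.6 and 47.8 CPM (-2.42 ± 0.40, adjusted p = 0.00627), and in injured neurons 148, 186 and 150 CPM against 28.5, 43.6 and 32.4 CPM (-2.21 ± 0.39, adjusted p = 0.0169). No library of either age overlapped the other in these 3 genes.

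Ip6k2, an inositol hexakisphosphate kinase, rose from 11.8, 8.88 and 13.9 CPM to 66.5, 57.8 and 53.6 CPM in intact neurons (2.36 ± 0.31, adjusted p = 0.000767) and from 12.2, 6.26 and 9.93 CPM to 54.3, 48.3 and 38.9 CPM in injured ones (2.31 ± 0.31, adjusted p = 0.00129). Eno1b, an enolase copy, rose from 16.4, 18.1 and 23.7 CPM to 88.5, 97.5 and 130 CPM (2.44 ± 0.29, adjusted p = 0.000388) and from 24.0, 24.6 and 24.0 CPM to 136, 137 and 140 CPM (2.51 ± 0.29, adjusted p = 0.000276). Eno1b is a near-identical copy of Eno1 and Rpl29 has many processed copies, so their counts are uncertain. All 5 calls in intact neurons were kept without each library of the 6. All 5 were lost under scaling to spike-in totals (edgeR adjusted p 0.0592 to 0.831). They were also lost in a fit of only the 9 intact libraries (edgeR adjusted p 0.0857 to 0.225). The intact 12-month replicates 1 and 3 had 133 and 172 CPM of Rpl29 and 24.5 and 23.02 CPM of Ip6k2, between the 2 ages.

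The difference between the 2 conditions was tested for each gene as an interaction. Of all 14084 genes tested only Tspan8 passed: its change was -6.10 in intact and 0.66 in injured neurons, where it had 41.4, 66.6 and 29.0 CPM at 1 month and 33.3, 126 and 57.1 CPM at 8 months (difference -6.77 ± 0.97, adjusted p = 0.0309). Prdm12 had 74.0, 81.9 and 170 CPM in injured neurons at 1 month and 51.1, 12.0 and 27.4 CPM at 8 months, against its rise in intact neurons (difference 5.29 ± 0.96, adjusted p = 0.175). Cyp1b1 had 139, 105 and 34.1 CPM and 124, 192 and 121 CPM in injured neurons, both above the intact 1-month values (difference 4.54 ± 1.20, adjusted p = 0.551). For the groups that leaned lower, the injured medians were -0.30 for nuclear oxidative phosphorylation genes (73 of 76 below 0), -0.48 for mitochondrially encoded genes, -0.01 for ribosomal proteins and -0.03 for proteasome subunits, and the difference between conditions was not tested for a list.

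Interferon response and MHC class I genes, which act in antiviral defence and antigen presentation, were split in intact neurons, with 16 of 30 above 0. In injured neurons 29 of the 30 were above 0 at 8 months (median 1.66) and none was called by edgeR. In 15 of the 30 the injured 8-month libraries lay above all injured 1-month libraries, against 9.61% of all protein-coding genes tested. The list's summed level in injured neurons was 720 to 741 CPM at 1 month and 2349, 1021 and 843 CPM at 8 months, so that replicate 1 of 8 months stood above the others.

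Levels of the called genes at 12 months are given for intact replicates 1 and 3. Replicate 2, with 93.8% of its endogenous counts in CT010467.1, was left out. In 23 of the 26 higher genes replicates 1 and 3 of 12 months lay below every 8-month library, and in 53 of the 69 lower genes they lay above every 8-month library. These genes were called for their extreme 8-month values, and both counts reuse the same 8-month libraries. The share over all tested genes was not computed. The counts therefore do not show a return towards the 1-month level and are given as levels only. Tspan8 had 147 and 157 CPM in those replicates, Prdm12 38.4 and 44.5 CPM, and Cnr1 19.3 and 0 CPM.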

How the data were processed

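Low-input SMART-seq2 libraries were analysed from the deposited table of raw fragment counts per gene, 1 column per library. Per the file headers, the authors counted with featureCounts 1.5.2 in paired mode, without strand, over exons of GENCODE vM16 plus ERCC spike-ins, summed by gene name; the submitters' processing notes also name Trim Galore, STAR and mm10. The deposited table gives summed exon lengths (unit: other). Of 87 count columns, 69 were left unused. The names of intact replicates 2 and 3 of 1 and 8 months each recur in a further sample title. These were taken as repeat deposits of the same library. The names of replicate 1 of these ages do not recur. Counts of 92 spike-ins and of CT010467.1 were dropped. The libraries compared held 3956440 to 11587094 counts after this. Without strand, overlapping and antisense genes cannot be told apart.

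All 18 low-input libraries were fitted in edgeR 4.0.16 (R 4.3.3) after filterByExpr and TMM scaling, by robust quasi-likelihood with a mean for each of 6 groups (14084 genes, common biological coefficient of variation 0.542, 12 residual degrees of freedom). Contrasts were 8 minus 1 month in intact and injured neurons and their difference. Each SE is the absolute fitted log2 change divided by the square root of the quasi-likelihood F statistic. P-values were adjusted by Benjamini-Hochberg over all genes tested. CPM is per TMM-scaled library. Coding status came from RefSeq GRCm38.p6 (36545 names matched by symbol, 708 by synonym); coordinates are those of the table. Alternatives used DESeq2 1.42.0 and limma 3.58.1, other scalings, filters, covariates and sets of libraries. The edgeR fit was also run on simulated counts with a fixed spread smaller than that of these data. Those counts held no differences in composition between libraries, so they do not give the error rate here. Intervals and floors (3 counts over a group) cover counting error only.

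Named genes were the 15 largest changes per direction among called genes that did not overlap and reached 10 CPM, every called list member, the 3 most counted tested members of a list, genes called in both conditions, and markers. The 43 lists and the comparison were chosen with earlier results of these data known.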

Additional observations from a re-analysis of the deposited data

Results flagged for a closer look

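The tetraspanin Tspan8 was the single gene whose change from 1 to 8 months differed between intact and injured neurons by the interaction test over all genes. The fitted change in intact neurons minus that in injured neurons was -6.77 (log2; SE 0.97; edgeR adjusted p = 0.0309). The 3 intact 8-month libraries had 0, 3.99 and 1.34 CPM, and the lowest of the other 15 low-input libraries, replicate 3 of injured neurons at 1 month, had 29.0 CPM. Groups of 3 libraries are too small for a check of single outlying libraries, and none was made.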

How the results depend on the processing

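The counts of 26 higher and 69 lower calls stayed within 1.5 times with RLE size factors (34 and 75), CT010467.1 kept (25 and 72), at least 1 CPM in 3 of the 6 libraries (31 and 75), mitochondrial genes dropped (25 and 69), only the 12 libraries of 1 and 8 months (22 and 53) and libraries thinned to 3954091 counts (22 and 60), an alternative chosen after seeing the data. The genes could differ: the fit of 12 libraries shared 14 of the 26 and 34 of the 69 calls, and Cyp1b1, Prdm12, Kcng2, Cnr1 and Gfra3 were not called there (adjusted p 0.0502 to 0.0733). They moved further with spike-in scaling (1 and 321), no filter on low counts (291 and 466), DESeq2 (293 and 427), limma-voom with quality weights (14 and 5), only the 9 intact libraries (0 and 3, with 705 at an unadjusted p below 0.05 by edgeR), only the 6 libraries compared (0 and 0) and the CT010467.1 share as a covariate (1 and 0, with 1256 at an unadjusted p below 0.05). The cause of these differences was not tested. Leaving out 1 library gave 4 to 104 higher and 15 to 264 lower genes, the highest without replicate 2 of intact 12 months. The replicate block gave 10 and 28. Same-numbered intact libraries of 1 and 8 months had correlations of 0.46, -0.274 and 0.373. Same-numbered intact and injured libraries had 0.153, 0.214 and 0.373 at 1 month and -0.283, -0.27 and 0.186 at 8 months. Not every library correlated best with its own number, and the labels do not say that numbers mark pairs. Under spike-in scaling 0 of the 26 higher genes were called, and Scg5 turned to -0.15. Genes at 0 in a group of 3956440 to 4574940 counts per library have bounds set by that depth.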

Other observations

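A further 4 lists had no gene called in intact neurons. Of 11 neuropeptide genes 7 were below 0 (median -0.47, log2), of 18 histone deacetylase and sirtuin genes 12 were above 0 (median 0.14), of 18 postnatal growth and imprinted genes 10 were above 0 (median 0.24), and of 19 immediate early genes 14 were above 0 (median 0.55). At an unadjusted p below 0.05 by edgeR these lists held 1, 0, 4 and 3 genes, against 1996 of all 12797 protein-coding genes tested.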
